A study of Mus musculus with 18 samples.

Results

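Collagens are secreted or membrane-bound proteins built from 3 polypeptide chains that wind into a triple helix, and each chain is encoded by a gene of its own. The collagen chain genes were taken as all non-control probes whose gene name in the scanner files is Col, a type number, the letter a and a chain number. This gave 87 probes for 44 of the 27396 gene names on the array: 11 fibrillar chains, 6 type IV chains, which form the network of basement membranes, and 27 chains of other types. Of the 44 genes, 42 had a probe that cleared background on each of the 3 arrays of some group and were tested among 19299 genes; Col10a1, of hypertrophic cartilage, and Col28a1 did not pass.

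Expression was measured on 18 one-colour arrays, 1 per sample, of mouse ovaries (XX gonads) from 2 embryonic stages, E15.5 and E17.5, named for the embryonic day, and from the day of birth, P0. At each stage there were 3 arrays from wild-type mice and 3 from mice labelled knockout for Elavl2, which encodes a neuronal-type RNA-binding protein of the Hu family that is also made in germ cells. No strain, allele or deleted segment is named in the labels, every sample is marked as mixed, and separate animals are not stated for the 3 arrays of a group. The p-values therefore cover only how far these samples vary, which may be technical. All samples share 1 preparation: dissection in cold buffer, storage in RNAlater, column-purified RNA and Cy3 as the dye.

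In the ovary, fibrillar collagens of types I, III and V make up most of the fibres of the stroma and are secreted mainly by mesenchymal cells. Type IV collagen lies in the basement membranes under the surface epithelium, around vessels and around germ cell cysts and follicles. Among the remaining chains, some decorate fibrils (such as types IX, XII, XIV, XIX and XX) and some form beaded filaments (type VI) or open networks (type VIII). Others cross the cell membrane (types XIII, XVII, XXIII and XXV), and the list is not complete.

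The repeat that makes a collagen a collagen can be read in the probes themselves. A triple helix needs glycine in each turn of the Gly-X-Y repeat, which in the messenger RNA is a codon beginning with GG at every 9th base. A run of at least 6 such GGN triplets, each 9 bases after the last, was found in 3 of the 87 collagen probes (3.45%) and in 3 of the 41174 non-control probes of the array (0.00729%), so no other gene's probe held one. On the opposite strand no probe of the array held such a run. The 3 probes are shown because they lie in the helix-coding sequence; the GGN triplets are in capitals, and each probe spans more than its 60 bases on the genome, so each crosses an intron (mm9, per the file headers).
Col11a2, chr17:34189287-34189453, plus strand: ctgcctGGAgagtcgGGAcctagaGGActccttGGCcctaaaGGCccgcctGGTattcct
Col5a1, chr2:27842243-27844666, plus strand: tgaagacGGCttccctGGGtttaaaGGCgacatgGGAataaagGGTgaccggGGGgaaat
Col5a3, chr9:20590066-20590795, minus strand: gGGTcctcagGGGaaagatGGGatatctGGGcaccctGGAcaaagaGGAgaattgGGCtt
None of the 3 is the probe that stood for its gene in the tests, where a gene's brightest probe by its mean was used, and the probe of Col5a3 did not pass the filter.

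Another 3 probe sequences matter for the results below. Col9a3, an alpha chain of the fibril-associated type IX collagen, is read by a single probe that also crosses an intron. Col2a1, the chain of type II collagen, is read by a pair of overlapping probes, and by another that did not pass the filter; the 40 bases they share are in capitals, and the first of the pair is printed in 10 spots of the array while the second has 1 spot.
Col9a3, chr2:180350553-180351135, plus strand: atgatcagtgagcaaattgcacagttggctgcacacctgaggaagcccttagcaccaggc
Col2a1 first probe, chr15:97806485-97806544, minus strand: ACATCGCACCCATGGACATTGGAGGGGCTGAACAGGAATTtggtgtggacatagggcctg
Col2a1 second probe, chr15:97806505-97806564, minus strand: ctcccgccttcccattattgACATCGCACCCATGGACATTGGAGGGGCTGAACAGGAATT

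The level of a gene below is the log2 of its background-subtracted spot signal minus the 75th percentile of its array, so 0 stands for a spot as bright as that percentile, and a difference of 1 is a doubling. Of the 42 tested genes, 39 were well above background on all 18 arrays, and 18 had a mean above the array's 75th percentile in all 6 groups. The 3 genes that fell below background on some arrays were Col4a3, Col9a1 and Col19a1. Fewer cells of a type and less RNA per cell cannot be told apart in whole ovaries. Differences were tested with limma in 1 fit over all 18 arrays with the 6 groups and the scan run as terms, and calls were made at an adjusted p (Benjamini-Hochberg, over the 19299 genes) under 0.05.

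Between 62.5% and 75.1% of probes were well above background on an array, and germ cell and pregranulosa markers of the ovary (7 and 8 genes tested) were above background on all 3 arrays of every group. Elavl2 itself was lower in the knockout by 0.87 at E17.5 (SE 0.12, limma adjusted p = 0.00448) and by 1.36 at P0 (SE 0.12, adjusted p = 9.09e-06). On the arrays labelled knockout at E15.5 its difference was -0.11 (SE 0.12, adjusted p = 0.75), so the label was not borne out by Elavl2 at that stage; whether the probe lies in the deleted segment is not given in the sources used here. The arrays fall into 2 scan runs: run A holds all E15.5 arrays and replicate 3 of both E17.5 groups, and run B holds the rest. Replicate 3 of the E17.5 knockout stood apart in red-cell genes: Epb42, of the red-cell membrane skeleton, was 6.01 higher than in wild-type replicate 3, against 0.16 between the means of replicates 1 and 2. No slide held both genotypes of E15.5 or of P0, so slide and genotype are tied there, and the slide was tried as a random block. They are also tied at E17.5 within run B, and only the replicate 3 arrays of E17.5 shared a slide between genotypes.

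Most collagen chains, among them the abundant fibre-forming ones, showed no called difference between knockout and wild-type ovaries at any stage. At E15.5, 1 of 42 genes was called, and it was higher (2.38%, against 1.62% of all genes tested, 0.969% higher and 0.648% lower). At E17.5, 1 of 42 was called, and it was lower (2.38%, against 4.16%, 1.33% higher and 2.82% lower). At P0, 7 of 42 were called, 4 higher and 3 lower (16.7%, against 34.5%, 18.3% higher and 16.1% lower). The median difference over the 42 genes was -0.08, 0.10 and 0.04 at the 3 stages in order of age, beside medians over all genes of 0.01, 0.05 and -0.00. Over the 8 comparisons of genotypes and stages, 25 of the 42 genes were called at least once (74.3% of all genes were), and 17 never were. Those 17 include Col1a1, Col1a2, Col3a1, Col5a1 and Col5a2, the chains of the common stromal fibres, and Col15a1 and Col18a1, the multiplexin chains of vascular and epithelial basement membranes.

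**Figure D1:**
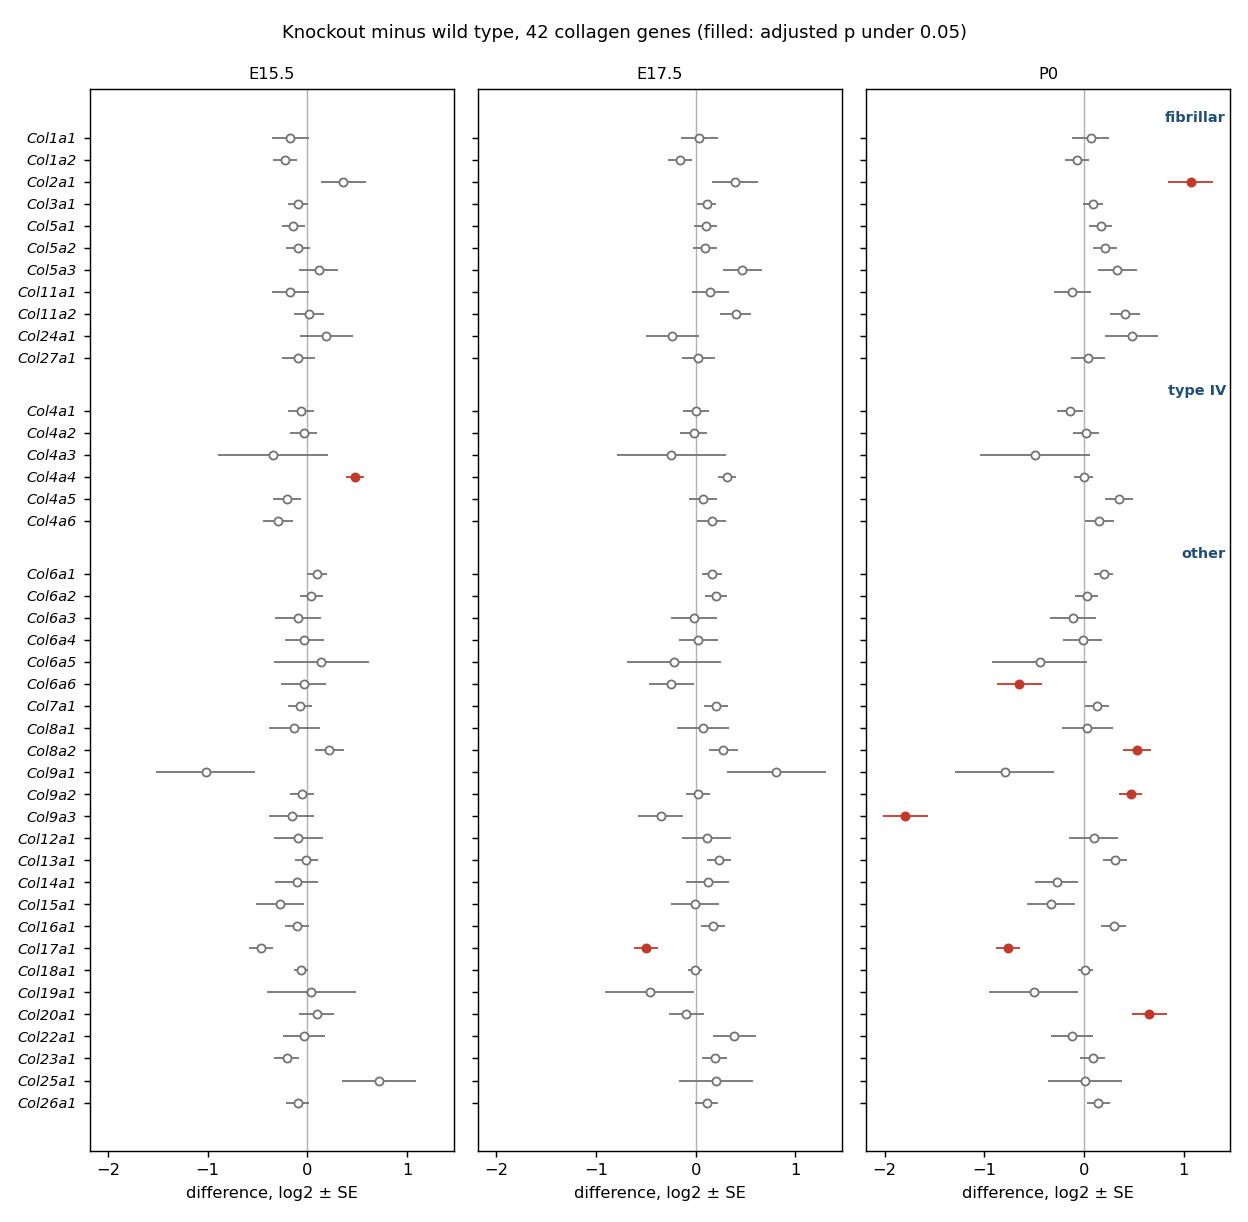
Knockout minus wild-type difference in log2 level (x axis, point with SE) for each of the 42 tested collagen genes (rows, grouped as fibrillar, type IV and other) at E15.5, E17.5 and P0, with filled points for genes at a limma adjusted p under 0.05. The left and middle panels hold 1 filled point each and the P0 panel 7, and the farthest from 0 is Col9a3 at P0, at -1.79.

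The largest difference between genotypes was that of Col9a3. Its level on the 3 wild-type arrays at P0 was -0.57, -0.56 and -0.77, and on the 3 knockout arrays -2.86, -2.33 and -2.09. Every knockout array was therefore below every wild-type array, and the mean was 3.47-fold lower (difference -1.79, SE 0.23, limma adjusted p = 9.95e-05). At E15.5 the wild-type arrays gave -2.87, -3.39 and -3.48 and the knockout arrays -3.28, -3.43 and -3.51, and at E17.5 the values were -3.20, -3.71 and -2.77 against -3.41, -3.69 and -3.63. The groups overlapped at both embryonic stages, with differences of -0.16 (95% interval -0.65 to 0.33) and -0.35 (-0.84 to 0.14). The knockout effect at P0 differed from that at E17.5 by -1.44 (SE 0.32, adjusted p = 0.0153), and Col9a3 was the 1 collagen gene of 42 called in that test (2.38%, against 10.4% of all genes, 4.28% higher and 6.12% lower).

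Of the other chains of type IX collagen, Col9a2 rose in the knockout at P0, and Col9a1 was below background there. Type IX is a heterotrimer of the alpha1, alpha2 and alpha3 chains that sits on the surface of type II collagen fibrils in cartilage. Col9a2 read 1.97, 2.05 and 2.17 on the wild-type arrays at P0 and 2.38, 2.73 and 2.49 on the knockout arrays. All 3 knockout arrays were above all wild-type arrays, a 1.38-fold higher mean (difference 0.47, SE 0.12, limma adjusted p = 0.00832). At E15.5 and E17.5 the difference in Col9a2 was -0.06 (-0.31 to 0.20) and 0.02 (-0.23 to 0.28). Col9a1 was not well above background on any P0 array of either genotype, and at E15.5 it was above background on 3 wild-type arrays (-5.23, -4.78 and -5.06) and on 1 of 3 knockout arrays (-5.85, -7.27 and -5.03), with adjusted p = 0.367.

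Col17a1, the transmembrane collagen of hemidesmosomes that anchors epithelial cells to their basement membrane, was lower in the knockout at the later stages. At P0 its level was -0.99, -1.12 and -1.13 in wild type and -1.81, -1.84 and -1.88 in the knockout. The groups did not overlap, and the mean was 1.70-fold lower (difference -0.76, SE 0.12, limma adjusted p = 0.000522). At E17.5 it read -1.41, -1.60 and -1.94 in wild type and -2.01, -2.04 and -2.38 in the knockout, again without overlap (difference -0.49, SE 0.12, adjusted p = 0.0403), and the difference was -0.44 within run A and -0.52 within run B. At E15.5 the values were -2.89, -2.58 and -2.41 against -3.34, -3.03 and -2.92, which do not overlap either, but the difference of -0.47 was not called (adjusted p = 0.0761). The call at E17.5 ended under 18 of 31 alternatives, among them leaving out any 1 of the 6 E17.5 arrays, and the call at P0 under none. A second probe of Col17a1 gave -0.38 at E17.5 and -0.49 at P0, neither called over all probes.

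Of the fibrillar chains, Col2a1 was called at P0. Type II collagen is the main fibril of cartilage, and its transcript is also made in some embryonic epithelia and mesenchyme. At P0 the wild-type arrays read 0.31, 0.14 and 0.17 and the knockout arrays 1.47, 1.51 and 0.86, with no overlap and a 2.10-fold higher mean (difference 1.07, SE 0.23, limma adjusted p = 0.00336). At E17.5 the values were 0.92, 1.00 and 0.83 against 1.59, 1.65 and 0.69, and at E15.5 -0.29, -0.24 and -0.17 against -0.10, -0.19 and 0.68. At those stages the knockout arrays reached above wild type but overlapped it (differences 0.40 and 0.36, adjusted p = 0.331 and 0.517). The second probe, which shares 40 bases with the first, gave -2.97, -2.80 and -3.19 in wild type and -3.43, -3.20 and -3.22 in the knockout at P0. Its knockout arrays were all below its wild-type arrays, a difference of -0.30 that was not called over all probes, so the 2 probes differ in sign and do not give Col2a1 1 direction. With the mean of a gene's probes its difference was 0.39 and not called (adjusted p = 0.116).

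A further 3 genes were called at P0 by single probes. Col20a1, a fibril-associated chain, read -1.64, -2.00 and -1.69 in wild type and -1.21, -1.31 and -0.84 in the knockout, 1.58-fold higher (SE of the log2 difference 0.17, limma adjusted p = 0.0118). Col8a2, a chain of the network-forming type VIII collagen, read 1.47, 1.71 and 1.92 against 2.25, 2.42 and 2.03, 1.45-fold higher (SE 0.15, adjusted p = 0.0133). In both genes the knockout arrays lay above all wild-type arrays; leaving out wild-type replicate 2 or knockout replicate 3 of P0 ended the call for Col20a1, and wild-type replicate 1 or knockout replicate 2 that for Col8a2. Col6a6, a chain of type VI collagen, read -3.50, -3.84 and -4.38 in wild type and -4.39, -4.52 and -4.76 in the knockout. The groups lie just apart, and the call (difference -0.65, SE 0.23, adjusted p = 0.0412) ended under 17 of 31 alternatives.

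**Figure D2:**
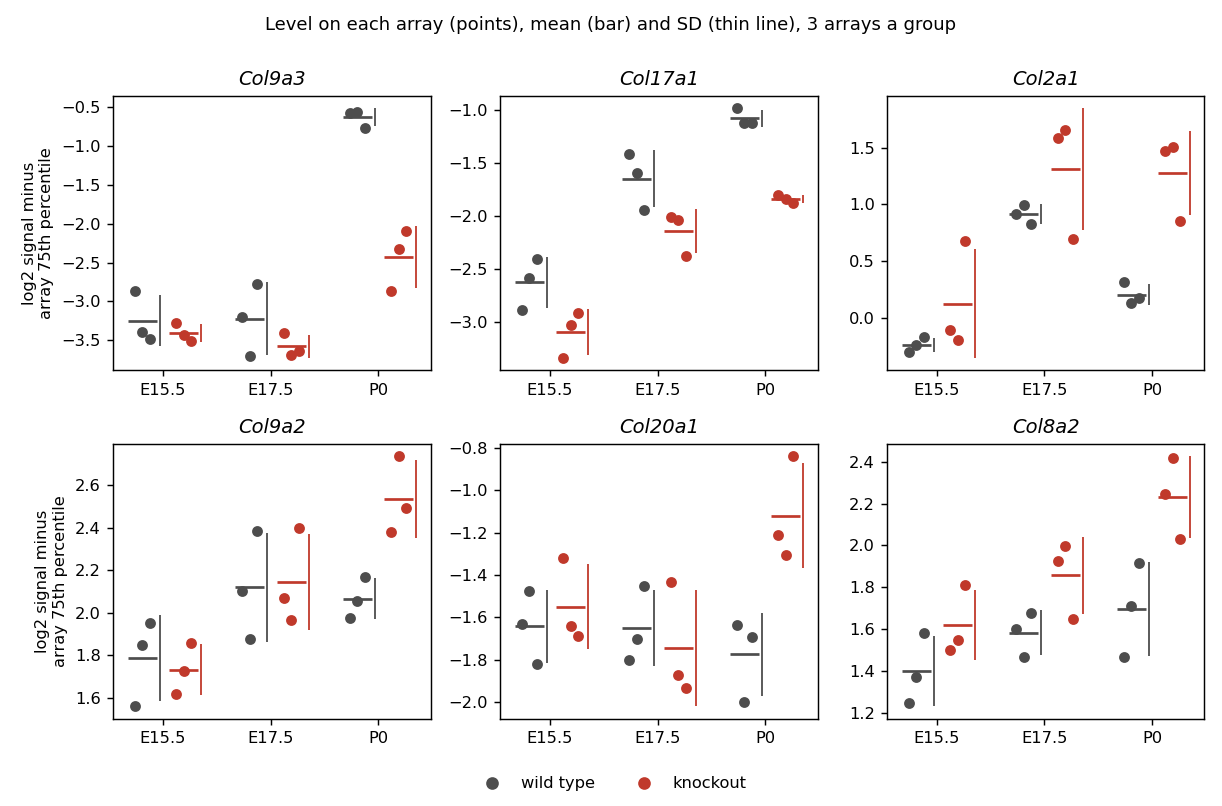
Level (y axis, log2 signal minus the array's 75th percentile) of the 6 collagen genes with the smallest adjusted p between genotypes at P0, by stage (x axis), with a point per array, a bar for the mean and a thin line for the SD of 3 arrays. At P0 the wild-type and knockout points do not overlap in any panel, which is no separate result, since the genes were chosen by that comparison. Col9a3 in wild type goes from a mean of -3.22 at E17.5 to -0.64 at P0 while the knockout mean goes from -3.58 to -2.43.

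The fibre-forming chains of the stroma were not called between genotypes, though the 95% intervals at P0 reached 0.47 for Col1a1 and Col5a2. At P0, Col1a1 read 5.70, 5.64 and 5.31 in wild type and 6.02, 5.54 and 5.29 in the knockout, and Col3a1 6.31, 6.12 and 6.29 against 6.49, 6.36 and 6.14. The groups overlapped for both, with 95% intervals of the difference of -0.34 to 0.47 for Col1a1 and -0.12 to 0.30 for Col3a1. The groups also overlapped for Col1a2, Col5a1 and Col5a2. Their intervals at P0 were -0.32 to 0.19 for Col1a2, -0.08 to 0.42 for Col5a1 and -0.04 to 0.47 for Col5a2. Of the 11 fibrillar genes, 9 had a difference above 0 at P0, with a median of 0.17 against -0.00 for all genes, and 1 was called. Col24a1, a fibrillar chain of developing bone and eye, read -2.42, -2.43 and -2.35 in wild type and -1.92, -2.05 and -1.78 in the knockout, which do not overlap but were not called (difference 0.48, adjusted p = 0.178). Col11a2, whose chain takes part in the cores of cartilage fibrils, read -2.97, -3.22 and -2.85 against -2.84, -2.67 and -2.30 (difference 0.41, adjusted p = 0.0531).

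Type IV chains are assembled in fixed combinations, and their genes lie in head-to-head pairs on opposite strands. In RefSeq (GRCm38.p6) the starts of Col4a1 and Col4a2 are 21 bases apart and those of Col4a5 and Col4a6 1343 bases. At E15.5 Col4a4 was the collagen gene called: it read -0.72, -0.71 and -0.64 in wild type and -0.31, -0.37 and 0.04 on the arrays labelled knockout. The groups did not overlap (difference 0.48, SE 0.09, limma adjusted p = 0.027), but the call ended when any 1 wild-type E15.5 array was left out and under 3 other alternatives. At E17.5 Col4a4 read -0.71, -0.79 and -0.19 against -0.55, -0.39 and 0.20 (difference 0.31, adjusted p = 0.0773), and at P0 -0.60, -0.57 and -0.47 against -0.57, -0.50 and -0.58, which overlap (difference -0.00, 95% interval -0.20 to 0.20). A second probe of Col4a4 gave 0.32, 0.61 and -0.19 at the 3 stages and was called over all probes at E17.5 (adjusted p = 0.0176). Col4a3, its partner gene, was above background in all 3 arrays only in wild type at P0 (-4.69, -4.71 and -5.15, against -5.76, -5.40 and -4.86), with differences of -0.34, -0.24 and -0.49 at the 3 stages, none called.

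The ubiquitous basement membrane chains differed little. Col4a1 read 3.12, 2.91 and 2.62 in wild type and 2.97, 2.56 and 2.69 in the knockout at P0, and Col4a2 2.72, 2.48 and 2.30 against 2.72, 2.29 and 2.54. Both genes overlapped between genotypes, with differences in order of age of -0.06, 0.00 and -0.14 for Col4a1 and -0.04, -0.02 and 0.02 for Col4a2. Col4a5 read -0.91, -1.02 and -0.87 against -0.28, -0.66 and -0.79 at P0, where the knockout arrays were all higher but the difference of 0.36 was not called (adjusted p = 0.0631). Its partner Col4a6 read 0.90, 0.84 and 0.84 against 1.36, 0.93 and 0.75 and overlapped. At E15.5 and E17.5 the differences were -0.21 and 0.07 for Col4a5 and -0.29 and 0.16 for Col4a6.

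Another 2 pairs of neighbouring collagen genes were compared in the same way. Col3a1 and Col5a2 differed between genotypes by -0.10 and -0.09 at E15.5, 0.11 and 0.09 at E17.5 and 0.09 and 0.21 at P0. Col6a1 and Col6a2, whose chains assemble into the beaded filaments of type VI collagen, differed by 0.09 and 0.04 at E15.5, by 0.17 and 0.20 at E17.5 and by 0.20 and 0.03 at P0. None of these differences was called. A second probe of Col6a2 gave 0.47 at P0, called over all probes (adjusted p = 0.00244), so the result for Col6a2 depends on the probe.

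At E17.5 the median collagen difference had opposite signs in the 2 runs. The median knockout minus wild-type difference of the 42 genes was -0.14 between the replicate 3 arrays of run A and 0.21 between the means of replicates 1 and 2 of run B, while over all genes it was 0.04 and 0.06. Fibrillar chains gave medians of -0.13 and 0.21 and type IV chains -0.16 and 0.18. Run A has 1 array per genotype here, so its values carry no spread. Its 2 arrays shared slide 3, whereas in run B wild type was on slide 4 and the knockout on slide 5. Run and slide therefore cannot be told apart in this contrast.

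Of the 22 genes with several probes past the filter, 14 had probes that all pointed the same way at P0 and 8 had probes that differed in sign. A probe was called in 5 of the 22 genes, all probes in none, and no gene had probes called in both directions. The share of all probes called at P0 was 32.5%. Besides Col2a1, Col11a2 and Col25a1 had a called probe among the 8. The helix probe of Col11a2 shown above was not well above background on any knockout array at P0, so it gives only a bound: it was at least 1.30-fold lower in the knockout (adjusted p = 0.0243 over all probes), while the probe that stood for the gene gave 0.41. A second probe of Col25a1, a transmembrane collagen of neurons, gave -1.04 (adjusted p = 0.0489) against 0.01, with 1 of 3 knockout arrays above background. The levels of the helix probe at P0 were -5.23, -5.12 and -4.92 in wild type and -6.76, -7.08 and -5.83 in the knockout.

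**Figure D3:**
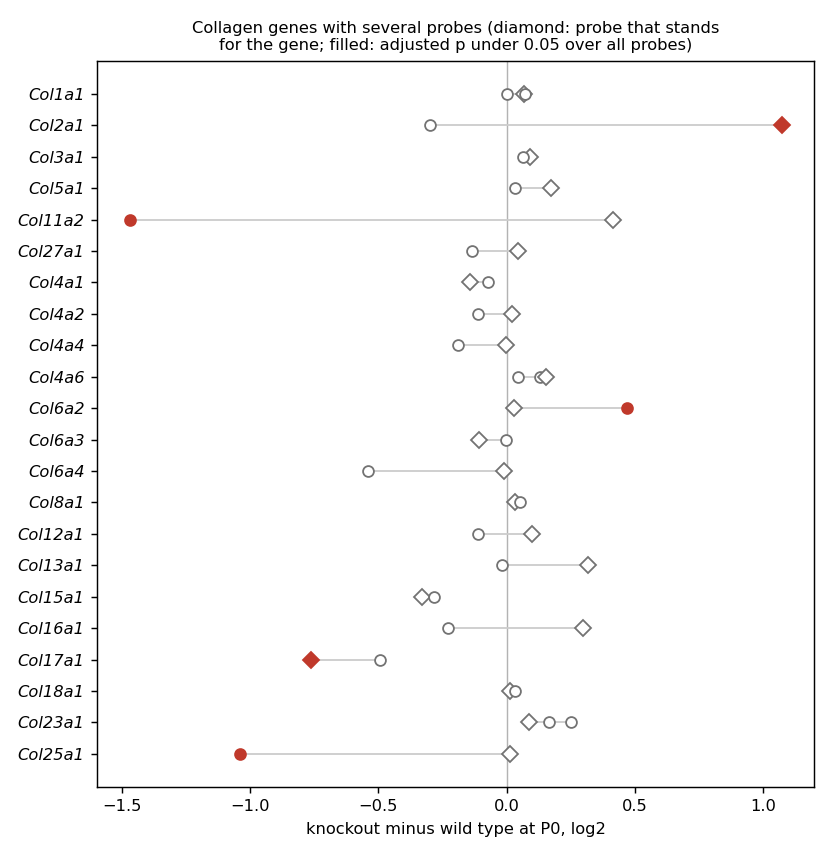
Knockout minus wild-type difference at P0 (x axis, log2) of each probe of the 22 collagen genes with several probes past the filter (rows), with a diamond for the probe that stood for the gene in the tests and filled symbols for an adjusted p under 0.05 over all 29203 probes. The probes of Col2a1 lie at -0.30 and 1.07; the points at -1.47 for Col11a2 and at -1.04 for Col25a1 are of probes below background on 3 and 2 of the knockout arrays, and the probes of Col1a1, Col3a1 and Col8a1 nearly coincide.

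Collagen genes also moved between stages in wild-type ovaries. From E15.5 to E17.5, 12 of 42 were called, 10 higher and 2 lower (28.6%, against 26.4% of all genes, 15.3% higher and 11.1% lower), with a median of 0.13 over the collagen genes and 0.03 over all genes. From E17.5 to P0, 11 of 42 were called, 5 higher and 6 lower (26.2%, against 43.3%, 22.1% higher and 21.2% lower), with medians of 0.04 and 0.01. These contrasts cross the runs, so values within a run are given beside them for some genes. Within run A the E17.5 value is that of replicate 3 alone. The run term of the fit rests on the same E17.5 arrays, so the run A value is no separate check. The steps before and after E17.5 share the E17.5 arrays.

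Col8a1, the main chain of type VIII collagen, a product of endothelial and other cells, rose the most between the embryonic stages. Its level in wild type was -1.41, -0.98 and -0.70 at E15.5, 1.86, 1.72 and 1.63 at E17.5 and 2.75, 2.85 and 2.83 at P0. No stage overlapped another, and the rise was 5.47-fold from E15.5 to E17.5 (log2 difference 2.45, SE 0.31, limma adjusted p = 0.000205) and 1.88-fold from E17.5 to P0 (0.91, SE 0.27, adjusted p = 0.0166). Within run A the first difference was 2.67, within run B the second 1.02, and a second probe gave 2.51 and 1.22. The knockout arrays followed the same course, with -1.13, -1.01 and -1.35, then 2.34, 1.82 and 1.28, then 2.26, 2.88 and 3.38, where E17.5 and P0 overlapped; their differences were 2.66 (SE 0.31, adjusted p = 8.89e-05) and 0.87 (SE 0.27, adjusted p = 0.0233). The first step kept its call in both genotypes under the 29 alternatives run; the second lost it in wild type without E17.5 wild-type replicate 1 or 2 and with array median scaling, and in the knockout under 7 of 31. Between genotypes Col8a1 differed by no more than 0.13 in size at any stage.

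Col24a1 also rose after E15.5. In wild type it read -4.94, -5.03 and -4.79 at E15.5, -2.93, -3.30 and -2.61 at E17.5 and -2.42, -2.43 and -2.35 at P0. Both later stages lay above E15.5 (difference 1.87, SE 0.33, limma adjusted p = 0.00163, and 2.31 within run A), a call that ended without E17.5 wild-type replicate 3, while the step to P0 was not called (0.49, adjusted p = 0.174). On the knockout arrays it read -5.06, -4.67 and -4.46, then -2.44, -3.37 and -3.73, then -1.92, -2.05 and -1.78, with both steps called (1.44, adjusted p = 0.00808, and 1.21, adjusted p = 0.00505).

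Col9a3 rose after E17.5, and its step from E15.5 to E17.5 was not called in either genotype. The wild-type mean went from -3.25 at E15.5 and -3.22 at E17.5 to -0.64 at P0, 6.45-fold higher (difference 2.69, SE 0.24, limma adjusted p = 6.95e-06, and 2.82 within run B). In the knockout the same step was 1.25 (SE 0.24, adjusted p = 0.00147, and 1.12 within run B). Both steps kept their call under the 31 alternatives run. Col17a1 rose in wild type over both steps (0.71, SE 0.15, adjusted p = 0.00455, and 0.44, SE 0.13, adjusted p = 0.0155), and in the knockout over the first (0.69, SE 0.15, adjusted p = 0.0062) with 0.17 and no call over the second (adjusted p = 0.331); the difference between the second steps was not called (-0.27, adjusted p = 0.336). The first wild-type step was not called without E17.5 wild-type replicate 3, nor the second without E17.5 replicate 2 or P0 replicate 1 of wild type; the knockout step was not called without E17.5 knockout replicate 3.

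The chains of type VI collagen account for 4 of the 10 genes that rose in wild type from E15.5 to E17.5. Col6a1 read 2.27, 2.55 and 2.61 and then 2.73, 2.84 and 3.07, with no overlap (difference 0.53, SE 0.12, limma adjusted p = 0.00702), and Col6a2, Col6a4 and Col6a6 gave 0.40, 0.90 and 1.01. The call for Col6a2 ended under 21 of 29 alternatives. Without E17.5 wild-type replicate 3, Col6a1 and Col6a4 were no longer called either, and Col6a6 was not without E15.5 wild-type replicate 1 or E17.5 knockout replicate 3. In the knockout Col6a1 read 2.47, 2.62 and 2.63 and then 2.96, 3.05 and 3.12 (0.61, SE 0.12, adjusted p = 0.00362). Col9a2 rose in both genotypes (0.59, adjusted p = 0.0102, and 0.67, adjusted p = 0.00567), from 1.56, 1.85 and 1.95 to 2.10, 1.87 and 2.38 in wild type, where the stages overlap, and from 1.62, 1.72 and 1.85 to 2.07, 1.97 and 2.40 in the knockout, where they do not. It rose again in the knockout at P0 (0.52, SE 0.12, adjusted p = 0.00573). Its first step was not called without replicate 3 of that genotype's E17.5 arrays or, in wild type, with array median scaling, and none of the 3 steps was called without the run term. The 2 genes that fell in wild type at this step were Col22a1, of tissue junctions (95% interval -1.57 to -0.43, adjusted p = 0.0154), and the transmembrane Col13a1 (-0.44, SE 0.15, adjusted p = 0.0441). Col22a1 was not called without replicate 3 of either E17.5 group or with the replicate block, and Col13a1 under 13 of 29 alternatives.

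Among type IV chains in wild type, the Col4a5 and Col4a6 pair fell towards birth while Col4a1 rose. In the knockout Col4a6 was the 1 type IV chain called at this step. In wild type Col4a5 read -0.40, -0.32 and -0.94 at E17.5 and -0.91, -1.02 and -0.87 at P0, which overlap at 1 array, and with the run term the difference was -0.63 (SE 0.15, limma adjusted p = 0.00419, and -0.57 within run B). Col4a6 read 1.48, 1.38 and 1.08 and then 0.90, 0.84 and 0.84, without overlap (-0.57, SE 0.16, adjusted p = 0.0111, and -0.56 within run B), and on the knockout arrays 1.44, 1.75 and 1.23 and then 1.36, 0.93 and 0.75 (-0.57, SE 0.16, adjusted p = 0.012). Col4a1 went from 2.43, 2.48 and 2.66 to 3.12, 2.91 and 2.62, which overlap (0.39, SE 0.14, adjusted p = 0.0381); 12 of 31 alternatives ended this call. Its partner Col4a2 showed -0.06 and no call. Col4a4 rose from E15.5 to E17.5 in wild type (0.54, SE 0.11, adjusted p = 0.00505) and in the knockout (0.38, SE 0.11, adjusted p = 0.0345); both steps rest on the run term, since without it they were 0.13 and -0.037 and not called. The knockout step of Col4a4 was also not called under 11 more of the 29 alternatives. Without the run term the wild-type differences of Col4a5 (-0.38, adjusted p = 0.229) and Col4a6 (-0.45, adjusted p = 0.0507) were not called. Leaving out E17.5 wild-type replicate 1 also ended the call for Col4a6 in wild type, and E17.5 knockout replicate 2 or P0 knockout replicate 3 that in the knockout. Col2a1 in wild type fell by 0.88 from E17.5 to P0 (SE 0.24, adjusted p = 0.0108) and by 0.75 within run B, in the probe whose overlapping partner gave -0.13.

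**Figure D4:**
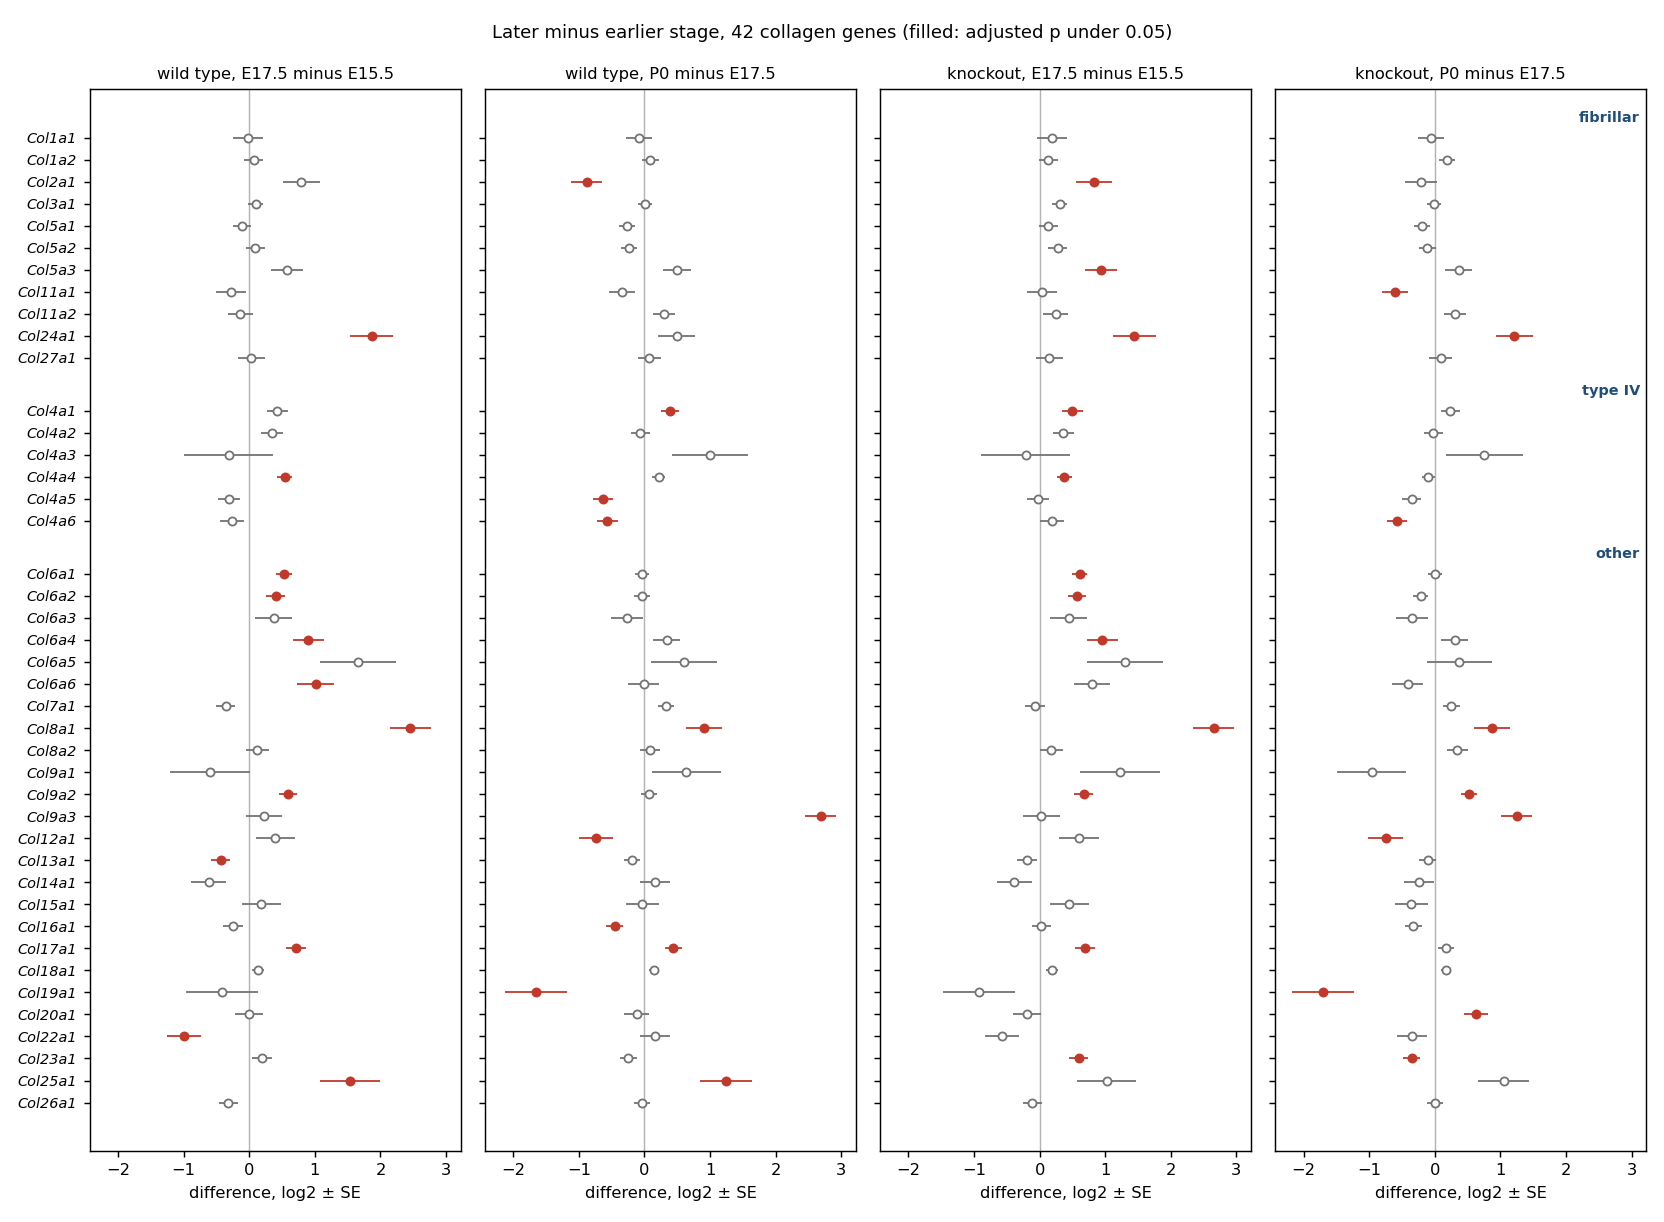
Difference in log2 level (x axis, point with SE) between successive stages for each of the 42 tested collagen genes (rows, grouped as fibrillar, type IV and other), in wild type and in the knockout, with filled points for genes at a limma adjusted p under 0.05. Col8a1 and Col24a1 lie far to the right in both E17.5 minus E15.5 panels, and Col9a3 reaches 2.69 in wild type and 1.25 in the knockout in the P0 minus E17.5 panels.

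**Figure D5:**
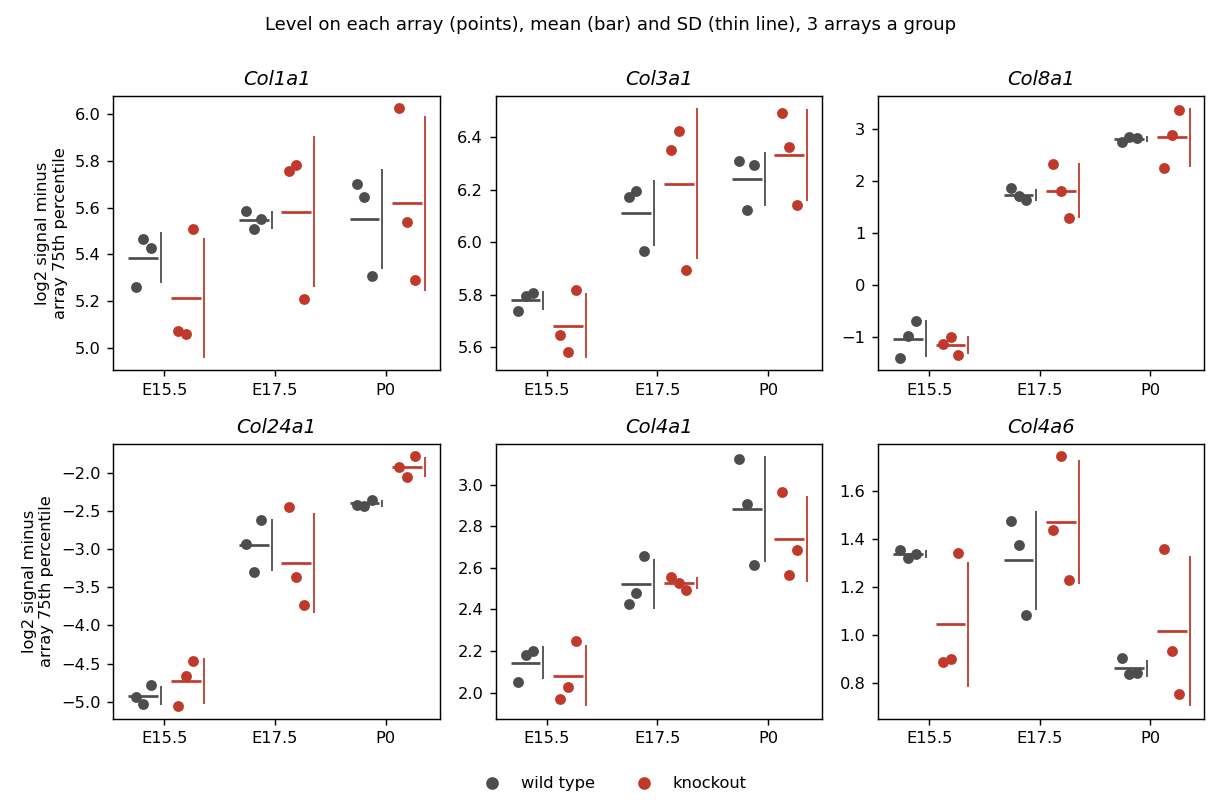
Level (y axis, log2 signal minus the array's 75th percentile) by stage (x axis) of 6 collagen genes, with a point per array, a bar for the mean and a thin line for the SD of 3 arrays, for wild type and knockout. Col1a1 and Col3a1 stay between 5.06 and 6.49 throughout, Col8a1 and Col24a1 climb after E15.5, and Col4a6 is lower at P0 than at E17.5 in both genotypes.

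In the knockout, 12 of 42 genes were called from E15.5 to E17.5, 12 higher and 0 lower (28.6%, against 21.8% of all genes, 11.8% higher and 9.98% lower). From E17.5 to P0, 10 of 42 were called, 5 higher and 5 lower (23.8%, against 37.2%, 18.2% higher and 19% lower). All 11 fibrillar genes had a difference above 0 in the first of these steps, with a lowest value of 0.04 and a median of 0.25 beside 0.10 over all genes. The quartiles over all genes were -0.15 and 0.38. Array median scaling shifted all genes by -0.18 at this step, more than the lowest fibrillar value, so not all 11 stay above 0 under it. Within run A, which holds 1 E17.5 knockout array, Col11a1 and Col1a1 gave -0.017 and -0.0024, and the other fibrillar genes were above 0. Of the 11 genes, 3 were called: Col24a1, Col5a3 and Col2a1. Col24a1 kept its call under the 29 alternatives run, Col5a3 lost it under 3 and Col2a1 under 22. Col19a1, a chain of basement membrane zones, was called lower from E17.5 to P0 in both genotypes, but it was well above background on 2 wild-type and 1 knockout arrays at E17.5 and on none at P0, so its size has no bound. The stage counts leaned on the E17.5 arrays: without wild-type replicate 3, the count from E15.5 to E17.5 in wild type went from 12 to 3, without wild-type replicate 1 or 2 that from E17.5 to P0 went from 11 to 5, and without knockout replicate 2 the knockout count at that step went from 10 to 3. In the knockout step from E15.5 to E17.5, leaving out wild-type replicate 3 of E17.5 gave 6, and the replicate number as a block gave 7.

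The scaling of the arrays bore on the split of calls. With each array centred on its median instead of its 75th percentile, all genes shifted by 0.14 between genotypes at P0, by -0.21 from E15.5 to E17.5 in wild type and by -0.16 from E17.5 to P0 in wild type. The collagen calls then became 11 higher and 2 lower at P0 (4 and 3 as reported), 7 and 8 in the first wild-type step (10 and 2), and 2 and 11 in the second (5 and 6). In the knockout step from E15.5 to E17.5 all genes shifted by -0.18 and the collagen calls became 7 and 0, and for the difference of knockout effects the shift was 0.16 and the calls 2 and 1. With quantile normalization they were 6 and 2 at P0, 10 and 2 in the first wild-type step, and 4 and 7 in the second. The median of the collagen genes at P0, 0.04, is smaller than the shift of 0.14 between scalings.

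The machinery that makes, cuts and binds collagen was read from lists of genes for each step. At E15.5, of the 86 genes tested in the 6 lists, Timp2, an inhibitor of matrix metalloproteinases, was the 1 gene called (-0.59, SE 0.12, limma adjusted p = 0.032), 1.2% of 86 beside 1.62% of all genes. At E17.5, 2 of 86 were called (2.3%, beside 4.16%): Sparc, a collagen-binding matricellular protein (0.33, SE 0.08, adjusted p = 0.0346), and Lamc3, a laminin chain that was below background on the wild-type arrays and at least 2.15-fold higher (adjusted p = 0.0407). At P0, 17 genes were called higher and 4 lower, 24.4% of 86 beside 34.5% of all genes, whose median was -0.00.

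Of 20 genes for synthesis, modification and folding, 4 were higher and 1 lower at P0, with a median of 0.08. The 4 were P3h3 (0.25) and Crtap (0.24), which belong to the prolyl 3-hydroxylation enzymes and their complex, Fkbp10 (0.26), a collagen chaperone, and Colgalt1 (0.26), which adds galactose to hydroxylysine. Sec23a, a coat protein for the vesicles that carry procollagen, was lower (-0.37, SE 0.07, limma adjusted p = 0.00179). Of 10 genes for processing and cross-linking, 3 were higher: Bmp1, which cleaves the C-propeptide (0.30), and the lysyl oxidases Lox (0.45) and Loxl3 (0.31), with a list median of 0.22.

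Of 14 genes for degradation and its inhibitors, 4 were higher and 1 lower, with a median of 0.27: Mmp15 (0.59, SE 0.11, limma adjusted p = 0.00149), the gelatinase Mmp2 (0.30), and the inhibitors Reck (0.29) and Timp1 (0.31), against Timp4 (-0.62). Of 9 receptor genes, the integrin chains Itgb1 (0.21) and Itga11 (0.35) were higher, with a list median of -0.14. Of 17 partners in the basement membrane, Sparc was higher (0.31) and the laminin chain Lamb3 lower (-0.91, SE 0.27, adjusted p = 0.0208), with a median of -0.02. Of 16 fibril-associated proteoglycans and matrix proteins, Thbs2 (0.93, SE 0.12, adjusted p = 9.89e-05), Aspn (0.59) and Lum (0.44) were higher and Comp (-0.65, SE 0.18, adjusted p = 0.0139) lower, with a median of 0.11.

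Markers of several cell types moved at P0 beside these genes, where 18.3% of all genes were higher and 16.1% lower. Of 7 stromal markers, 5 were higher in the knockout and none lower. The log2 of their summed signal ranged from 5.93 to 6.03 in wild type and from 6.46 to 6.58 in the knockout. Wild-type replicate 3 had no value for the stromal marker Nr2f2, so its sum, the 5.93, leaves that gene out and reads too low. The highest wild-type value, 6.03, is of an array with all 7 genes. Dlk1 was the brightest of the 7 on every P0 array and weighs most in these sums. Of 8 endothelial markers, 6 were higher and none lower, with sums of 3.25 to 3.47 and 3.66 to 3.87, and of 7 surface epithelium markers 4 were higher and none lower, with sums of 5.65 to 5.94 and 6.12 to 6.27. The 8 cartilage and bone markers tested gave 2 higher and 1 lower, with overlapping sums of -0.15 to -0.06 and -0.10 to 0.26; Matn3, of cartilage matrix, was not above background on any P0 array, and Sp7, of osteoblasts, on no knockout P0 array. The list for mesonephros and duct held Pax2, Pax8, Wt1, Emx2, Lhx1 and Gata3, and whether other ovarian cells make them was not tested. It gave 3 higher and 1 lower of 6, with sums of 3.79 to 3.91 and 4.22 to 4.44. Germ cell markers gave 2 higher and 1 lower of 7, with sums of 6.78 to 6.89 and 6.68 to 6.995, which overlap. Pregranulosa markers gave 2 higher and 0 lower of 8, with overlapping sums of 3.71 to 3.93 and 3.89 to 4.19. Macrophage and leukocyte markers gave 2 higher and 0 lower of 7. Smooth muscle and pericyte markers gave 1 higher and 1 lower of 7, and Schwann and nerve markers 1 and 1 of 5. None of 5 skeletal muscle or 7 red-cell markers was called. The part of these markers in the collagen results was not tested.

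Promoter windows of 300 bases around the start were found in RefSeq (GRCm38.p6) for 35 of the 44 genes. The letters GGGCGG on either strand, the core of a GC box, were in a window of 22 of the 35 genes (62.9%) and of 38.2% of 27025 genes with windows of the same length. CCAAT on either strand was in those of 13 genes (37.1%, against 41.1%) and TATAAA in those of 5 (14.3%, against 15.7%). By class, GGGCGG was found for 6 of 8 fibrillar, 4 of 5 type IV and 12 of 22 other genes. A match is a description of the letters only, and the windows of Col4a1 and Col4a2 share bases.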

How the data were processed

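Total RNA of 18 mouse ovary samples was hybridised to 1-colour Agilent arrays (design 014868). The spot intensity values were deposited as scanner output of Feature Extraction 10.7.3.1, background-subtracted and detrended, per the file headers; the submitters' processing notes name version 9.5. The log2 values of the deposited series matrix equal these signals up to 1 constant per array and served as an alternative. Signals were scaled by each array's 75th percentile and put on a log2 scale; control spots and outlier flags were left out, spots of a probe were averaged, probes had to be well above background on all 3 arrays of a group (29203 of 41174 probes), and the probe with the highest mean stood for its gene. limma 3.58.1 in R 4.3.3 was fitted as stated in the report, 2-sided, with 11 residual degrees of freedom, and was tested on simulated data. The number of arrays, 3 in a group, limits the precision. Figures were drawn with matplotlib 3.10.9.

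In each comparison of genotypes, the up to 6 called collagen genes with the smallest adjusted p were named with array values. So were, in each class, the up to 3 members with the largest difference at P0. The same holds, in each comparison of stages, for the up to 4 called members with the smallest adjusted p. Both genes of 5 neighbouring pairs and up to 4 genes of each list were named too, in part by their differences alone. Col6a6, Col22a1, Col13a1, Col19a1, Col5a3 and the probe pairs were singled out after their values were seen. The collagen genes, classes and lists were chosen with earlier results of these data known. Arrays of the same replicate number were compared by how far they lay from their groups' means. At E17.5 these deviations correlated at 0.12, 0.40 and 0.45, and replicate 3 of both groups was in run A. The values were 0.18, 0.20 and -0.12 at E15.5 and 0.15, 0.10 and 0.08 at P0. A pairing by replicate number cannot be told apart from the shared run at E17.5. Alternatives were other scalings and background corrections, filters, rules for probes, terms of the fit and leaving out each array.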

Additional observations from a re-analysis of the deposited data

Results flagged for a closer look

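The knockout effect on Col9a3 differed between stages: it was -1.79 at P0 and -0.35 at E17.5, and the test of the difference itself gave -1.44 (SE 0.32, limma adjusted p = 0.0153). The direction and the call held under the 31 alternatives run, with the difference between -1.70 and -1.19. Of the 8 cartilage and bone markers tested, 2 were higher and 1 lower at P0, and their summed level overlapped between genotypes. Their part in the Col9a3 result was not tested. Groups of 3 arrays are too small for a test of single outlying values.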

How the results depend on the processing

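With 3 arrays a group, 7 slides and 2 runs, small differences and genes near background (Col4a3, Col9a1 and Col19a1) have little support. The differences of Col9a3, Col17a1 and Col9a2 at P0 kept their call under the 31 alternatives run for each. Some of these were close to the main fit, such as the series matrix values, which nearly repeat the main scaling. Slide and genotype stay tied at P0 under every alternative. The 1 call at E15.5 became 0 without the run term, with the replicate block and with only the stages compared. The 1 call at E17.5 became 2 with normexp background, and 0 with array median scaling, no filter, no run term, the slide as a block, only the stages compared, run B arrays alone and without slide 3 (the last 2 were chosen after seeing the data); with the mean of a gene's probes the 1 call was Col4a4 (0.46) in place of Col17a1. With array median scaling the 7 calls at P0 became 13, the 12 calls of the knockout from E15.5 to E17.5 became 7, and the 1 call for the difference of knockout effects became 3; that last count was 2 with normexp background and with the mean of a gene's probes. Without the run term the 11 wild-type calls from E17.5 to P0 became 7. The 12 knockout calls became 7 with the mean of a gene's probes and also 7 with the replicate block, which moved no count but this and that at E15.5 by more than 1.5 times. Leaving out each array in turn gave 0 to 2 calls at E15.5 and at E17.5, 5 to 9 at P0, 3 to 14 and 5 to 15 for the wild-type steps, 6 to 16 and 3 to 12 for the knockout steps, and 1 to 3 for the difference of effects. The sign turned for Col4a4 in the knockout from E15.5 to E17.5 without the run term (-0.037) and for Col19a1 in the knockout from E17.5 to P0 with no filter (0.36), where another probe stands for the gene. The cause of the other changes was not tested.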
